A study of Mus musculus with 2 samples.

Results

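The genes described here are 8 enzymes of amino acid paths through which T cells can be restrained, though not each of them consumes an amino acid that T cells need. They are Nos2 and Ass1 of arginine metabolism, Odc1 and Sat1 of polyamine metabolism, Ido1, Kmo and Kynu of tryptophan breakdown, and Il4i1 of phenylalanine breakdown. They were taken by name for these paths and the rule used no measured value, but they were chosen with earlier results of these data known. All 8 were found among the 17232 genes of the deposited table. They were followed across immune cells sorted from subcutaneous B16-OVA tumors, a C57BL/6 mouse melanoma line that makes the model antigen ovalbumin, taken 14 days after the tumor cells were given. One library came from Maoa wild type mice and one from Maoa knock out mice. The knock out mice carry a hypomorphic allele of Maoa, the gene of monoamine oxidase A, that was crossed for over 9 generations onto C57BL/6J, and both groups were 8 to 12 weeks old per the methods. For each genotype 10 tumors were combined, viable CD45.2+ cells were sorted, and 10000 cells were loaded on one 10x Chromium 3′ lane, so each genotype is 1 library and the animals behind a cell are not known.

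T cells need arginine and tryptophan to proliferate, and myeloid cells can take these away. Inducible nitric oxide synthase (Nos2) turns arginine into citrulline and nitric oxide, and argininosuccinate synthase (Ass1) starts the path from citrulline back to arginine. Ornithine decarboxylase (Odc1) commits ornithine to polyamines, which dividing cells require, and spermidine/spermine N1-acetyltransferase (Sat1) marks polyamines for breakdown or export. Indoleamine dioxygenase (Ido1) opens the kynurenine path from tryptophan, kynurenine 3-monooxygenase (Kmo) and kynureninase (Kynu) act further down it, and the secreted oxidase Il4i1 deaminates phenylalanine and other aromatic amino acids.

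In GENCODE M21 on the mouse assembly GRCm38, all 8 are protein-coding. Nos2 lies on chromosome 11 from 78920787 to 78960254 and Ass1 on chromosome 2 from 31470207 to 31520672. Odc1 lies on chromosome 12 from 17544794 to 17551505 and Sat1 on chromosome X from 155213132 to 155216449. Ido1 lies on chromosome 8 from 24584136 to 24597009, Kmo on chromosome 1 from 175620381 to 175662116, and Kynu on chromosome 2 from 43555329 to 43682715. Il4i1 lies on chromosome 7 from 44816387 to 44840809, where its annotated span overlaps Nup62 on the same strand over 97 exonic bases. Promoter windows from RefSeq (GRCm38.p6, 250 bases before the RefSeq start) were held for 5 of the 8 members, namely Il4i1, Kmo, Odc1, Sat1 and Ass1. They were searched on both strands for 6 motifs: the E-box CACGTG, the STAT site TTCNNNGAA, the cAMP site TGACGTCA, the NF-kappaB site, the PU.1 site GAGGAAGT and the AP-1 site TGANTCA. The PU.1 letters were found in Kmo and Il4i1, both highest in dendritic cell groups, and the E-box in Ass1. The 30 bases around each match are shown 5′ to 3′ on the gene's strand, with the match in capitals, because they are the only matches in these windows. The RefSeq start lies 11812 bases into the GENCODE span for Kmo, 19901 for Il4i1 and 63 for Ass1, so each stretch lies inside the span given above. GENCODE places an exon of the gene itself in the Kmo and Ass1 stretches and an exon of Tbc1d17 in the Il4i1 stretch.
Kmo, chr1:175632079-175632108, plus strand: aacacttatcaGAGGAAGTgagctttgacc
Il4i1, chr7:44836144-44836173, plus strand, match on the opposite strand: tagactgagttACTTCCTCctgtgatattt
Ass1, chr2:31470222-31470251, plus strand: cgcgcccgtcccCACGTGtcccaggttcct
The same letters are held by 2.44% of all 32851 promoter windows for the PU.1 site and by 6.02% for the E-box, so a match is a description of the sequence only. No match was found in the Odc1 or Sat1 window.

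The library labelled WT held 2392 cells with 28801253 unique molecular identifiers (UMIs, 1 per captured transcript) and the library labelled KO 2630 cells with 23702018. Maoa itself gave 7 UMIs from 6 WT-labelled cells and 15 UMIs from 14 KO-labelled cells, which does not bear out the labels. Such low counts cannot check them either, and the paper reports nearly complete loss of MAO-A expression in spleen and bone marrow of its knock out mice. For this reason "labelled" stands before each genotype here, and every direction below rests on those labels. Clusters built without the members and without the other genes of their pathways were named from marker lists, and each name means cells like that type. In the libraries labelled WT and KO they gave 476 and 275 macrophages in 3 groups (C1q, Mmp12 and Cxcl3 macrophages, by leading genes), 439 and 529 monocytes and monocyte-derived cells, 136 and 320 dendritic cells (DCs), 46 and 68 plasmacytoid DCs (pDCs), 1044 and 1123 T cells and 180 and 259 NK cells. A further cluster of 60 and 32 cells stayed unnamed and in no class. Its 10 leading genes held both regulatory T cell genes (Izumo1r, Icos, Foxp3, Ctla4 and Ikzf2) and myeloid ones (Spp1, Fn1, Thbs1 and Cd14), its 8 regulatory T cell markers summed to 2837 and 2211 CPM against 6639 and 6139 CPM in regulatory T cells, and 57 and 27 of its cells held 3 or more UMIs of Cd3d, Cd3e and Cd3g. It held 16 and 0 Nos2 UMIs (17.2 CPM when labelled WT), and its Odc1 stood at 64.6 and 188 CPM (ratio 1.54, 1.03 to 2.06), with ratios as defined next, and the part of regulatory T cell RNA in these values was not tested. Values are CPM, the UMIs of a gene scaled to the same total of UMIs in every group, with exact 95% Poisson intervals, and ratios are the library labelled KO over the library labelled WT on the log2 scale with exact conditional 95% intervals. With 1 library per genotype no test was possible, and all intervals cover counting error only. UMIs are counted at the 3′ end, so a level is compared between groups and not between genes.

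Nos2 was carried by macrophages, and its level was lower in the library labelled KO in each of the 3 macrophage groups. In Cxcl3 macrophages 254 and 12 UMIs gave 99.2 CPM (87.4 to 112) under the label WT and 38.7 CPM (20.02 to 67.7) under KO, and the log2 ratio was -1.30 (-2.33 to -0.53). In Mmp12 macrophages it stood at 74.7 and 27.1 CPM (ratio -1.45, -2.06 to -0.91), where the monocyte marker Ly6c2 stood at 141 and 443 CPM and the macrophage marker C1qa at 948 and 582 CPM, and the part of this shift was not tested. In C1q macrophages it stood at 16.4 and 2.71 CPM (ratio -2.50, -4.16 to -1.28). Cxcl3 and Mmp12 macrophages were thus the highest groups in both libraries, with ranges over the libraries that overlapped each other, and C1q macrophages lay below both in both libraries. The MHC II-high monocyte-derived cells held 37 UMIs (10.8 CPM) over 256 WT-labelled cells and 0 over 252 KO-labelled cells. The interval of the log2 ratio had its upper end at -2.96. The WT-labelled level was 10.1-fold a floor of 3 UMIs in the library labelled KO, without the counting error of the 37 UMIs. DCs and pDCs held no Nos2 UMI in either library, and in DCs a floor of 3 UMIs stands at 1.47 CPM (WT-labelled) and 0.678 CPM (KO-labelled). T cells, which should lack the gene, held 8 UMIs in 1044 cells (0.605 CPM) and 0 UMIs in 1123 cells.

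A Nos2 UMI was seen in 106 of 476 macrophages (22.3%, 95% Clopper-Pearson interval 18.6 to 26.3) in the library labelled WT and in 22 of 275 (8%, 5.08 to 11.9) in the library labelled KO, at median depths of 10232.5 and 9691 UMIs. T cells, which should lack it, gave 0.766% and 0% at median depths of 9962 and 4821 UMIs. A cell with no UMI may still hold the transcript. With macrophages thinned to 5800 UMIs each, 432 and 246 cells were deep enough to enter, and 17.1% (13.7 to 21.02) against 6.50% (3.76 to 10.3) of them held Nos2. The highest cell held 21 UMIs in the library labelled WT and 8 in the library labelled KO. Ass1 was found both with and without Nos2 in the Mmp12 and Cxcl3 macrophages. In the library labelled WT an Ass1 UMI was seen in 73 of 97 cells with Nos2 (75.3%, 65.5 to 83.5) and in 183 of 308 cells without it (59.4%, 53.7 to 64.9). In the library labelled KO the shares were 10 of 17 (58.8%, 32.9 to 81.6) and 85 of 156 (54.5%, 46.3 to 62.5), with intervals that overlapped. Median depth was 9992 UMIs in cells with Nos2 against 9450.5 without in the first library, and 9605 against 7562 in the second, and the part of depth was not tested.

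Ass1 reached beyond macrophages, to regulatory T cells, mature DCs and monocyte-derived cells. Regulatory T cells (Tregs), marked by Foxp3, gave the highest level in both libraries, 411 CPM (368 to 457) and 417 CPM (373 to 464), a log2 ratio of 0.02 (-0.20 to 0.24), and an Ass1 UMI was seen in 79 of 97 and 75 of 92 of them. At clustering resolution 1.2 mature DCs became the highest type in the library labelled WT. With cell types set from marker UMIs alone in place of clusters, Ass1 in regulatory T cells was 150 and 240 CPM, and the highest type became MHC II-high monocyte-derived cells in the library labelled WT and mature DCs in the library labelled KO. Mature DCs came next at 403 and 317 CPM, with intervals that overlapped those of Tregs in the library labelled WT only. MHC II-high monocyte-derived cells stood at 303 and 221 CPM, Cd209a DCs at 273 and 197 CPM, Cxcl3 macrophages at 287 and 158 CPM and Mmp12 macrophages at 242 and 145 CPM, and these 4 groups overlapped over the libraries. T cells other than Tregs were lower, 52.2 and 56.0 CPM together, and Gzma NK cells held 7 and 3 UMIs. Ass1 was lower in the library labelled KO in Cxcl3 macrophages (ratio -0.84, -1.31 to -0.44), Mmp12 macrophages (-0.74, -1.0003 to -0.48), C1q macrophages (-1.05, -1.73 to -0.41), MHC II-high monocyte-derived cells (-0.46, -0.60 to -0.31), Cd209a DCs (-0.48, -0.73 to -0.21) and mature DCs (-0.35, -0.67 to -0.02). The processed pseudogene Gm5424 on chromosome 10 tracked Ass1 more closely than any other gene, and its UMIs came to 9.72% and 10.6% of the Ass1 UMIs in the 2 libraries, so part of the Ass1 signal may be split between these copies.

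**Figure D1:**
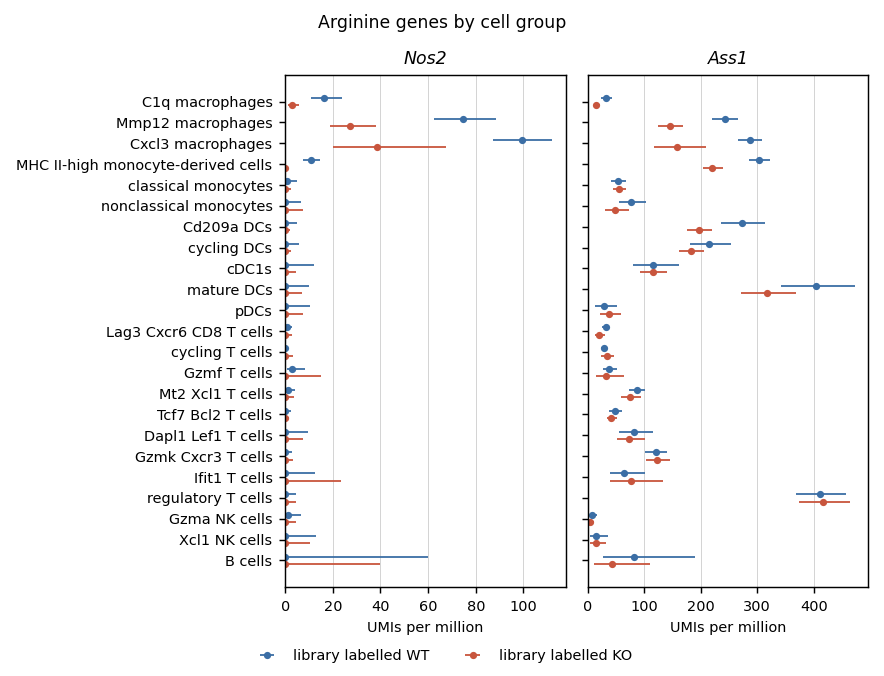
Level of Nos2 and Ass1 (horizontal axes, CPM) in 23 cell groups for the library labelled WT (blue) and the library labelled KO (red). Points are sums over the cells of a group and bars exact 95% Poisson intervals. Nos2 is high in Mmp12 and Cxcl3 macrophages and lower there in the library labelled KO, whereas Ass1 peaks in regulatory T cells and mature DCs.

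Taken over all macrophages, Nos2 and Ass1 were both lower in the library labelled KO, but the 3 macrophage groups were also mixed differently. Nos2 stood at 69.6 and 13.6 CPM (ratio -2.34, -2.80 to -1.93) and Ass1 at 205 and 69.5 CPM (-1.56, -1.76 to -1.37). Cxcl3 macrophages made up 243 of 476 macrophages (51.1%) in the library labelled WT and 37 of 275 (13.5%) in the library labelled KO, and C1q macrophages 14.9% and 37.1%. Standardised to one mix of the 3 groups, the ratios became -1.49 for Nos2 and -0.82 for Ass1. RNA of S100a8 and S100a9, abundant in neutrophils, also differed between the libraries. The pair was lower in the library labelled KO in each of the 23 named groups, T, NK and B cells included, and stood at 1193 and 32.3 CPM in Cxcl3 macrophages, 180 and 10.7 CPM in Mmp12 macrophages and 122 and 8.14 CPM in C1q macrophages. The other 9 neutrophil markers summed to 1243 and 1301 CPM in Cxcl3 macrophages, 793 and 729 CPM in Mmp12 macrophages and 262 and 150 CPM in C1q macrophages. All 11 were detected in Cxcl3 macrophages of the library labelled WT, and Cxcr2 and Retnlg were at 0 in those of the library labelled KO. Without the cells with 5 or more UMIs of S100a8 and S100a9 the Nos2 ratio over macrophages was -2.48 and the Ass1 ratio -1.73.

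Odc1, which starts polyamine synthesis, was the member with the broadest difference, higher in the library labelled KO in T cells, in part of the NK cells and in macrophages. In Tregs it stood at 130 CPM (106 to 157; 108 UMIs) when labelled WT and 794 CPM (733 to 858; 638 UMIs) when labelled KO, for a log2 ratio of 2.61 (2.32 to 2.92) or 6.10-fold. An Odc1 UMI was seen in 44 of 97 Tregs (45.4%, 35.2 to 55.8) and 79 of 92 (85.9%, 77.0 to 92.3), and after thinning to 3700 UMIs per cell in 28.7% (19.9 to 39.0) and 75% (64.1 to 84.0). The difference was spread over the cells. The median Treg held 0 CPM of Odc1 if labelled WT and 502 CPM if labelled KO, and 5 of 97 against 35 of 92 held 5 UMIs or more. The 10 richest cells carried 48.1% and 44.7% of the UMIs. In Tregs Foxp3 stood at 288 and 285 CPM and the 9 cell cycle markers at 1527 and 1723 CPM.

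**Figure D2:**
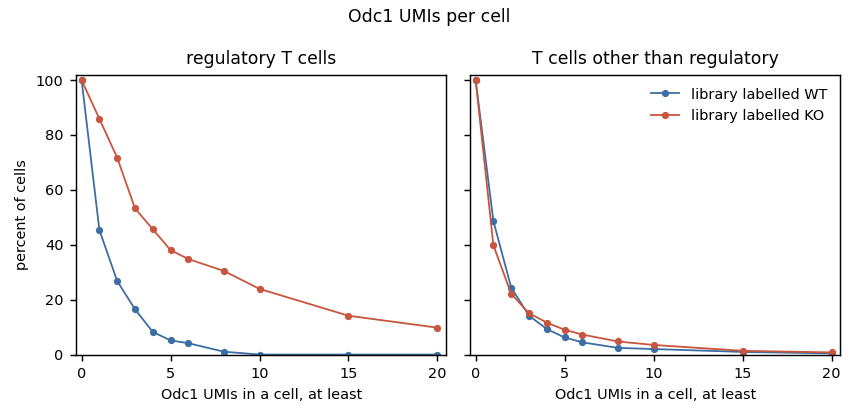
Percent of cells (vertical axis) with at least the number of Odc1 UMIs on the horizontal axis, in regulatory T cells (left) and all other T cells (right), as deposited and without thinning. The curve of the library labelled KO (red) lies above that of the library labelled WT (blue) at every plotted count from 1 up in regulatory T cells, whereas in the other T cells it starts below (39.8% against 48.6% at 1 UMI) and is above from 3 UMIs on.

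Among the other lymphoid groups Odc1 was higher in the library labelled KO in most, including Tcf7 Bcl2 T cells (73.8 and 95.9 CPM), and did not differ beyond counting error in Dapl1 Lef1 T cells, Ifit1 T cells and Gzma NK cells. Gzmf T cells, with 45 and 9 cells, stood at 73.9 and 460 CPM (ratio 2.64, 2.21 to 3.08), an interval that overlapped that of Tregs. Lag3 Cxcr6 CD8 T cells stood at 71.6 and 213 CPM (ratio 1.57, 1.31 to 1.84) and Gzmk Cxcr3 T cells at 78.8 and 256 CPM (1.70, 1.37 to 2.04). In the latter Foxp3 stood at 4.78 and 18.1 CPM, while the 8 Treg markers summed to 1204 and 1072 CPM. Cycling T cells stood at 95.5 and 210 CPM (1.14, 0.89 to 1.39), and Mt2 Xcl1 T cells, the highest group of the library labelled WT, at 214 and 373 CPM (0.80, 0.58 to 1.01). Xcl1 NK cells stood at 91.0 and 283 CPM (1.61, 1.001 to 2.32), against 71.6 and 78.0 CPM in Gzma NK cells (0.12, -0.40 to 0.65). The 9 cell cycle markers were lower in the library labelled KO in several groups with higher Odc1, at 985 and 309 CPM in Gzmk Cxcr3 T cells, 1328 and 246 CPM in Tcf7 Bcl2 T cells and 844 and 196 CPM in Xcl1 NK cells. The part of Treg and cell cycle RNA in these ratios was not tested. In all, the interval lay above 0 in 8 of the 11 T and NK groups and below 0 in none. The order of the groups differed between the libraries: Mt2 Xcl1 T cells led in one and Tregs in the other. Over all T cells Odc1 stood at 100.1 and 255 CPM (1.35, 1.25 to 1.45), and at 98.1 and 199 CPM (1.02, 0.91 to 1.13) without Tregs. The share of T cells with a UMI was 48.3% against 43.5% as deposited, where the library labelled KO was shallower (median 4821 against 9962 UMIs), and 21.6% against 35.6% after thinning to 3500 UMIs.

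In myeloid cells Odc1 was higher in the library labelled KO in the 3 macrophage groups, at 34.8 and 129 CPM in Cxcl3 macrophages (ratio 1.90, 1.32 to 2.45), 75.2 and 166 CPM in Mmp12 macrophages (1.14, 0.82 to 1.47) and 67.3 and 105 CPM in C1q macrophages (0.64, 0.30 to 0.99). One Mmp12 macrophage of the library labelled KO held 50 of that group's 203 UMIs. MHC II-high monocyte-derived cells (51.7 and 53.7 CPM) and classical monocytes (31.7 and 32.7 CPM) were close between the libraries. Among DCs only the cycling DC cluster had an interval above 0, at 74.6 and 240 CPM (1.67, 1.25 to 2.15), and it also held T cell RNA, Treg markers included. The 8 Treg markers summed to 1715 and 1512 CPM in it, against 358 and 416 CPM in Cd209a DCs. Foxp3 stood at 55.9 and 51.0 CPM in the cycling DC cluster, and the part of Treg RNA in its Odc1 ratio was not tested. The 10 T cell markers summed to 1481 and 1436 CPM there, against 181 and 109 CPM in Cd209a DCs, all 10 were detected in both libraries, and 26 of 34 and 58 of 79 of its cells held 3 or more UMIs of Cd3d, Cd3e and Cd3g. Over all DCs the Odc1 ratio was 0.97 (0.69 to 1.27), and it was 0.16 without the cells that held 3 or more such UMIs.

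Sat1 was highest in myeloid cells of both libraries. Nonclassical monocytes were highest at 2543 and 2045 CPM and held a UMI in each of 74 and 78 cells. With cell types set from marker UMIs alone, they were no longer the highest type in the library labelled KO. Cxcl3 macrophages (1754 and 1598 CPM), Mmp12 macrophages (1491 and 1552 CPM), classical monocytes (956 and 1197 CPM), MHC II-high monocyte-derived cells (691 and 544 CPM) and C1q macrophages (533 and 437 CPM) were the other named monocyte and macrophage groups, each below the one before in both libraries. T and NK groups lay between 89.2 and 282 CPM. The interval of the ratio lay below 0 in 5 of 11 myeloid and DC groups and 4 of 11 T and NK groups, and above 0 in classical monocytes (0.32, 0.22 to 0.43) and in B cells. In classical monocytes C1qa stood at 626 and 25.3 CPM and the 9 cell cycle markers at 429 and 97.5 CPM, and their part in the Sat1 ratio was not tested. Mature DCs (546 and 356 CPM, ratio -0.61, -0.91 to -0.32) and Tregs (282 and 194 CPM, ratio -0.54, -0.84 to -0.24) were among the lower groups. B cells, with 11 and 24 cells, held 5 and 25 UMIs (81.1 and 269 CPM, ratio 1.62, 0.32 to 3.47) and were the only group past 2-fold. Over all macrophages the ratio was -0.59 (-0.65 to -0.53), and -0.08 when standardised to one mix of the groups.

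**Figure D3:**
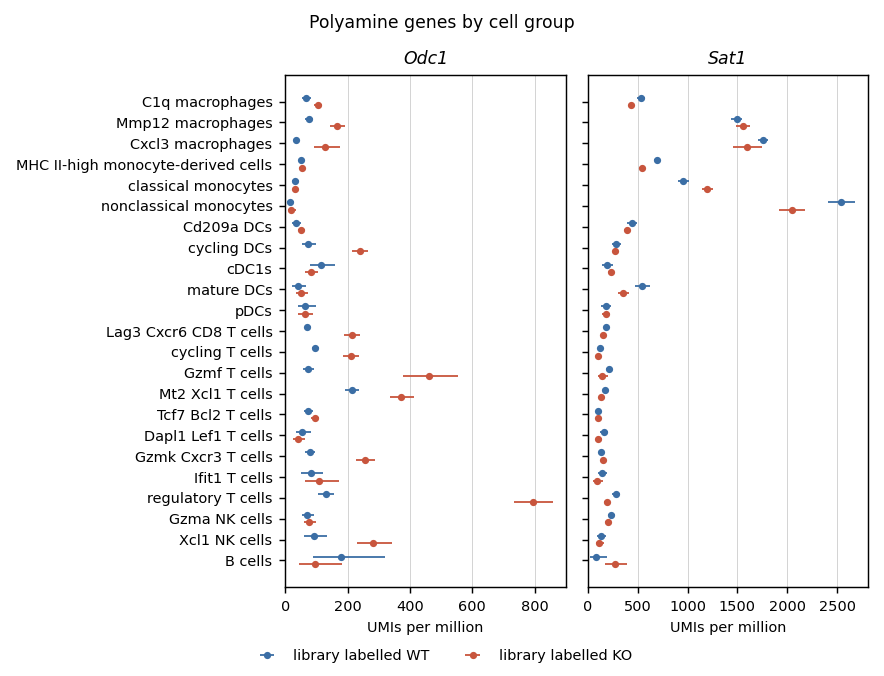
Level of Odc1 and Sat1 (horizontal axes, CPM) in 23 cell groups for the library labelled WT (blue) and the library labelled KO (red), with exact 95% Poisson intervals. Odc1 is higher in the library labelled KO in Tregs and 7 other T and NK groups, with Gzmf T cells resting on 9 cells of that library, and Sat1 is high in monocytes and macrophages of both.

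The first enzyme of the kynurenine path was close to undetected, while the later ones were found in DCs. Ido1 gave 11 UMIs in 9 of 5022 cells, spread over 9 groups with 1 cell each, so neither its cell type nor a difference between libraries could be read at this depth. Ido2 and Tdo2, which catalyse the same step, gave 2 UMIs each. Kmo was highest in pDCs, at 198 CPM (155 to 251) and 177 CPM (141 to 219), with a UMI in 35 of 46 and 44 of 68 cells. Cd209a DCs followed at 137 and 97.1 CPM, cycling DCs at 96.3 and 71.0 CPM, cDC1s at 69.5 and 60.0 CPM (17 and 54 cells) and mature DCs at 45.7 and 24.5 CPM, each below the one before in both libraries. B cells (11 and 24 cells) held 1 and 3 UMIs. Macrophages, at 3.87 and 2.41 CPM, and T cells, at 0.908 and 1.77 CPM, were far below. In the DC groups and pDCs the Kmo ratio was negative in all 5, and its interval excluded 0 only in Cd209a DCs (-0.50, -0.87 to -0.13).

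Kynu was sparser, with 146 UMIs in all, and was likewise highest in the DC and pDC groups, though in another order. Mature DCs gave 37.6 and 26.4 CPM (14 UMIs in each library), pDCs 22.7 and 33.3 CPM, Cd209a DCs 17.9 and 13.9 CPM, cDC1s 16.6 and 11.5 CPM and cycling DCs 12.4 and 13.8 CPM. The mature DCs and pDCs overlapped over the libraries, and all 5 intervals of the ratio held 0. Macrophages held no Kynu UMI, which allows up to 0.505 and 0.802 CPM, and T cells held 1 UMI in each library. Haao, the next enzyme after Kynu toward NAD, gave 391 UMIs in 331 cells.

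Il4i1 marked mature DCs, the Ccr7+ Fscn1+ cells that migrate to lymph nodes. They stood at 944 CPM (847 to 1048) and 741 CPM (669 to 818), with a UMI in 26 of 28 cells (92.9%, 76.5 to 99.1) and 38 of 44 cells (86.4%, 72.6 to 94.8), and the ratio was -0.35 (-0.56 to -0.14). Mature DCs also held T cell RNA, with the 10 T cell markers at 726 and 884 CPM and 3 or more Cd3 UMIs in 9 of 28 and 13 of 44 cells, while Il4i1 in T cells was 2.65 and 2.12 CPM. Cd209a DCs stood at 49.4 CPM in both libraries, carried by 9 of 57 and 16 of 143 cells. In Xcl1 NK cells Il4i1 reached 42.01 and 140 CPM (ratio 1.69, 0.81 to 2.78), from 4 of 37 and 9 of 59 cells. One of the 9 held 26 of their 50 UMIs, and without the richest cell of each library the levels were 22.0 and 68.2 CPM. Macrophages, at 2.19 and 2.94 CPM, lay at the level of T cells.

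**Figure D4:**
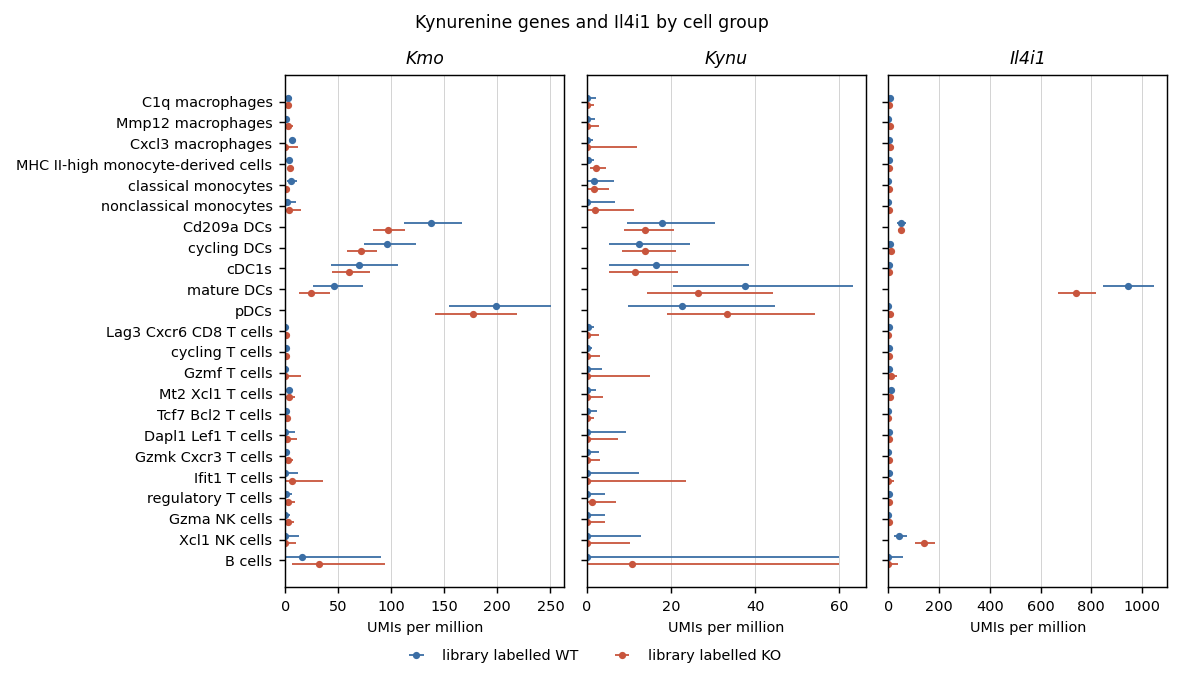
Level of Kmo, Kynu and Il4i1 (horizontal axes, CPM) in 23 cell groups for the library labelled WT (blue) and the library labelled KO (red), with exact 95% Poisson intervals. Kmo and Kynu lie highest in the DC and pDC groups, with levels under 7 CPM in the others except B cells, where wide bars rest on 11 and 24 cells, and Il4i1 stands at 944 and 741 CPM in mature DCs.

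To set the members against all genes, a gene with at least 100 UMIs over both libraries in a class was counted when it differed by 2-fold or more. In macrophages 4 of the 8 members had that many UMIs. Odc1 was past 2-fold higher in the library labelled KO, where 1.78% of 6361 genes were, and Nos2 and Ass1 were past 2-fold lower, where 2.31% were. With macrophages standardised to one mix of groups the count was 2, Odc1 and Nos2. The median gene of macrophages had a log2 ratio of 0.10, and centred on it Odc1 became 1.09, Nos2 -2.44 and Ass1 -1.66, so the same 3 members were past 2-fold. In T cells 3 members were measured, and Odc1 was past 2-fold higher, against 1.07% of 8565 genes, with none lower, against 1.62%. Without Tregs Odc1 stayed past 2-fold. In monocytes none of 3 members was past 2-fold, against 0.566% of genes higher and 1.9% lower. In DCs none of 6 was, against 0.351% and 1.53%, and Odc1 lay just inside the limit. In NK cells none of 2 was, against 0.471% and 1.3%. The median log2 ratio of the measured members was -1.07 in macrophages (all genes 0.10), -0.06 in monocytes (-0.02), -0.40 in DCs (-0.07), 0.27 in T cells (-0.06) and 0.30 in NK cells (0.00).

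**Figure D5:**
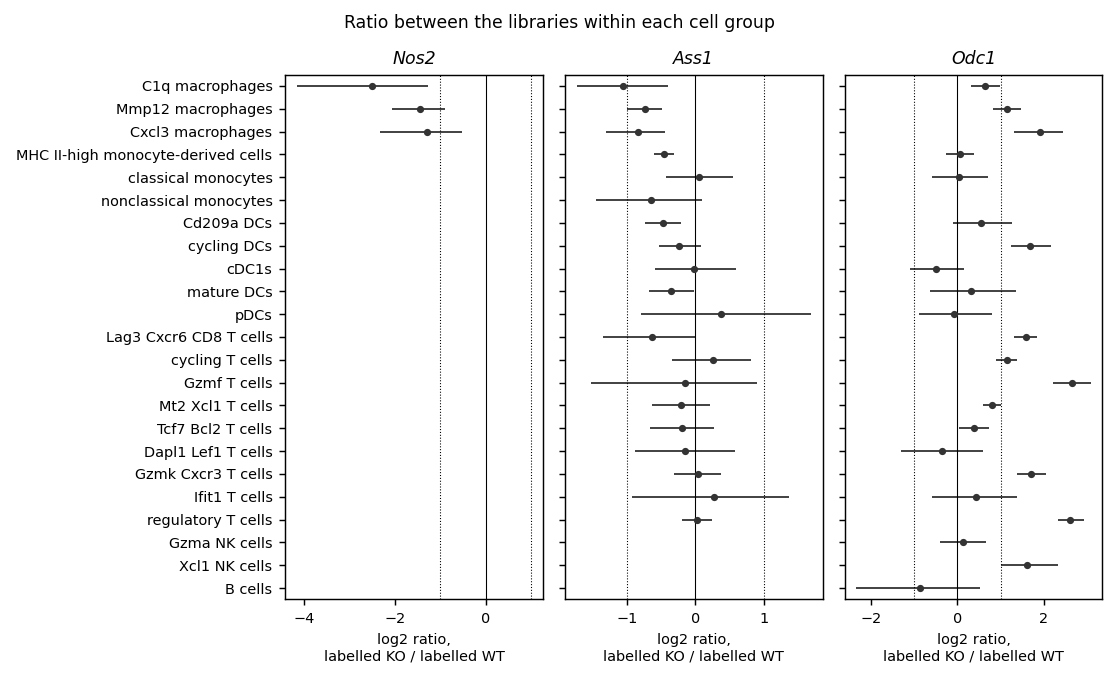
Log2 ratio of the library labelled KO over the library labelled WT (horizontal axes) for Nos2, Ass1 and Odc1 within each cell group that held at least 20 UMIs of the gene in all and some in both libraries, with exact conditional 95% intervals and dotted lines at 2-fold. Within groups Nos2 and Ass1 lie below 0 in all 3 macrophage groups, and Odc1 lies above 0 in macrophages and most T cell groups.

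Of the other 58 pathway genes in the table, few passed the same limit. In macrophages 31 had 100 UMIs or more. Over all macrophages Gamt, which makes creatine from the product of Gatm, was past 2-fold higher in the library labelled KO (10.6 and 21.4 CPM), and none was lower. Standardised to one mix of the 3 macrophage groups, Gamt stood at 12.9 and 17.2 CPM (ratio 0.41), its interval held 0 within each group, and none of the 31 genes was past 2-fold in either direction. In monocytes 33 were measured, with Gatm (45.1 and 21.3 CPM) lower and none higher. Gatm stood at 147 and 138 CPM in C1q macrophages. The macrophage marker C1qa stood at 626 and 25.3 CPM in classical monocytes, 304 and 40.6 CPM in nonclassical monocytes and 1007 and 652 CPM in MHC II-high monocyte-derived cells. The part of macrophage RNA in the Gatm ratio was not tested. In T cells 33 were measured, with Ddah2, which degrades methylated arginine (7.94 and 3.54 CPM), lower and none higher. None of 30 in DCs and none of 10 in NK cells passed. Of the 15 other polyamine genes in the table, 11 had 100 UMIs or more in T cells. Amd1, which makes the aminopropyl donor, had an interval above 0 (19.9 and 25.7 CPM, ratio 0.37, 0.11 to 0.64). Spermine synthase (Sms, 151 and 107 CPM), antizyme inhibitor (Azin1, 36.3 and 30.7 CPM), polyamine oxidase (Paox, 13.8 and 8.62 CPM) and Eif5a, which is modified with spermidine (1071 and 947 CPM), had intervals below 0, and those of the other 6 held 0, where 14.6% of the 8565 genes had an interval above 0 and 27.6% one below. None of the 11 was past 2-fold in T cells. The T cell groups were also mixed differently, with 138 and 412 Tcf7 Bcl2 T cells, 171 and 65 cycling T cells and 262 and 123 Lag3 Cxcr6 CD8 T cells. These T cell ratios were not standardised to one mix, and the part of the mix in them was not tested. Over all macrophages 11 were measured too, with intervals above 0 for Srm, Sms, Oaz1, Paox and Eif5a and below 0 for Smox, where 28.8% of all 6361 genes had one above 0 and 15.9% one below. Standardised to one mix of the macrophage groups, their ratios were 0.04, 0.26, 0.09, -0.25 and 0.06, and 0.29 for Smox, so the signs of Paox and Smox turned.

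The genes whose levels ran most like each member were taken by Pearson's r of log2(CPM + 10) over 43 group and library points, among 10487 genes. The points share libraries and the cells share depth, so r is a description. Nos2 ran with Il1a (0.96), Inhba (0.96) and Mmp13 (0.94). Il4i1 ran with Ccl22 (0.89), Mreg (0.88) and Fscn1 (0.85). Kmo ran with Bcl11a (0.92), Kynu (0.91) and Gprc5c (0.89), and Kynu with Flt3 (0.93), Kmo and Siglecg (0.88). Sat1 ran with Atg4c (0.94), Dram2 (0.93) and Msrb1 (0.92). Ass1 had 1 close gene, Gm5424 (0.92), before Arhgap31 (0.73) and Ube2l6 (0.71), and Odc1 had none above Lockd (0.71), Arl6ip1 (0.69) and Gm10282 (0.68). Ido1 had too few UMIs to compare.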

How the data were processed

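The authors built 10x Chromium 3′ V2 libraries, ran Cell Ranger on mm10, merged both libraries and deposited one table of natural log values, ln(1 + 10000 × UMIs / UMIs of the cell), for 17232 genes and 5022 cells. Here exp(value) - 1 was divided by its smallest step in each cell, which gave whole UMIs (tolerance 0.01) for 100% of values in all 5022 cells. Cells held 3529 to 93529 UMIs (labelled WT) and 2928 to 48962 UMIs (labelled KO). The column suffix gave the library. Cells were clustered with Seurat 5.3.0 in R 4.3.3 (variable genes without the members and pathway genes, 13 components, resolution 0.8, myeloid and lymphoid cells again apart), and clusters were named from marker lists. No doublets were removed in the main values. UMIs were summed per group and library. CPM, Poisson, Clopper-Pearson and conditional intervals came from scipy 1.17.1, with 0.5 UMIs added in log2 ratios and the limit set at 2-fold among genes with 100 UMIs. Shares were also given after thinning each cell to the 10th percentile of its group or class. The study's test over cells was not used, since cells are not replicates. The members, gene lists and marker lists were chosen with earlier results of these data known. Named genes were the members, the pathway genes past the limit, and the 3 genes most like each member; Amd1, Srm, Sms, Azin1, Oaz1, Paox, Smox, Eif5a, Haao, Ido2 and Tdo2 were added after their values were seen. One gene of the rule and 1 pathway gene are not reported here and stand in no count. Barcodes shared by both libraries numbered 13. Alternatives covered clustering, doublets, weighting, depth and mix. The ratio code was tested on simulated data.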

Additional observations from a re-analysis of the deposited data

Results flagged for a closer look

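Ass1 moved in opposite directions in 2 classes, and the difference was not tested. Its log2 ratio of the library labelled KO over the library labelled WT was 0.27 (0.13 to 0.41) over all T cells and -1.56 (-1.76 to -1.37) over all macrophages. Within T cells the interval of no single group lay above 0, and that of Lag3 Cxcr6 CD8 T cells lay below it (31.6 and 20.1 CPM, -0.63, -1.35 to -0.01). The ratio was 0.10 (-0.08 to 0.28) without Tregs, and it was -0.06 when standardised to one mix of T cell groups. Within macrophages all 3 groups lay below 0.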

How the results depend on the processing

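The cell type (clusters joined by marker list) with the highest level of each member was recomputed for 14 combinations of 7 members and 2 libraries: all 14 stayed under 7 of 9 alternatives, 13 at resolution 1.2 (Ass1 in the library labelled WT changed to mature DCs) and 11 with groups from marker UMIs alone, where Ass1 changed type in both libraries (150 and 240 CPM in regulatory T cells) and Sat1 in the library labelled KO; Odc1 in regulatory T cells was then 117 and 591 CPM. The count of 3 members past 2-fold in macrophages became 2 with at least 500 UMIs required (Odc1, Ass1), 2 when standardised to one mix of groups (Odc1, Nos2), where Ass1 became -0.82, and 2 with groups from marker UMIs alone (Nos2, Ass1), where Odc1 became 0.99. The count of 0 in monocytes became 1 at resolution 1.2 (Nos2), 1 with groups from marker UMIs alone (Kmo) and 2 with at least 20 UMIs (Il4i1 higher, Nos2 lower). The count of 0 in DCs became 1 (Odc1) without the richest cell, without cells with S100a8 and S100a9 UMIs and centred on the median ratio, and 1 (Il4i1, -1.07) without myeloid cells with T cell UMIs, an alternative chosen after seeing the data. The count of 0 in NK cells became 1 (Il4i1) with at least 20 UMIs. The count of 1 in T cells did not change under any alternative run, which included leaving out Tregs, also chosen after seeing the data. The 1 pathway gene past 2-fold in macrophages became 0 when standardised to one mix of groups, chosen after seeing the data. No log2 ratio past 2-fold changed sign. Shares of cells followed the level for 3 of 4 members and classes past 2-fold as deposited and for 4 of 4 after thinning; the exception was Odc1 in T cells. Except where the mix, the UMI minimum or the cells left out make the change by construction, the cause was not tested. No paired analysis was possible because each genotype is 1 library. Ido1, Kynu, and Il4i1 outside mature DCs are limited by depth.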
